A study of Sus scrofa with 40 samples.

Results

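The 21 libraries made from mtDNA-normal pig oocytes, out of 40 in the series, were compared by the way they were prepared. Of these, 6 were made from pooled oocytes and 15 from single oocytes. Members were taken by the label for mtDNA state together with the label for pooled or single-cell samples. All 21 held Sus scrofa oocytes at metaphase II, of a commercial cross (Large White, Duroc and Berkshire). The sample titles carry BCBpos for the single oocytes and pos for the pools. Apart from what these marks may stand for, no treatment is named in the labels. RNA of the pools was extracted with the Arcturus Picopure kit and amplified with the Nugen Ovation RNA-seq V2 and Ultralow V2 systems. RNA of the single oocytes was extracted in the tube and amplified with the Nugen SoLo kit, with a Sus scrofa InDA-C primer mix that depletes unwanted transcripts. Library type, extraction, kit, number of oocytes and count table went together, so they cannot be told apart in any difference given here. How many oocytes made a pool is not stated in the labels.

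A metaphase II oocyte is a mature egg that waits for fertilisation with its nuclear genes largely silent. It lives on RNA stored during growth, much of it held back by proteins that repress translation and control the length of the poly(A) tail. Part of this store is translated and part is degraded around meiotic maturation and after fertilisation, so the stored set describes what the egg can supply to the early embryo.

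Each pool held 16704143 to 29944169 counts and each oocyte 762221 to 3146568. In the oocytes 1 row, LOC102158401, took 61.1% ± 5.54 of all counts (SD, n = 15), against 0.0125% ± 0.00879 in the pools (n = 6). It was left out with RN18S, the 18S ribosomal RNA, and with a row that names no gene. That left 16187099 to 29479964 counts per pool and 232358 to 675471 per oocyte, and CPM (counts per 1000000) are shares of these totals. CPM is not a level per length, so an order of genes given here is an order of shares of counts. Pool A3 stood apart: its 10 leading genes took 13.951% of its counts, against 8.225% to 10.119% in the other 5, and it had the fewest genes with a count, 15055 against 17602 to 19243.

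The oocyte markers were present in every library. DNMT1, which copies DNA methylation at replication and has a form particular to oocytes, stood at 53589, 69024, 36935, 47206, 57822 and 42321 CPM in pools A2, A3, A4, B1, B2 and B4. In the single oocytes it ranged from 2541 to 4463 CPM, with a median of 3395. The groups did not overlap, and DNMT1 alone took 5.12% ± 1.15 of the counts of a pool. OOSP2, a protein secreted by the oocyte, stood at 558 to 1658 CPM in pools and at 88.0 to 177 CPM in oocytes, again without overlap, as were 16.4% of all genes tested. LHX8, a transcription factor of the oocyte, stood at 427 to 580 CPM in pools and 102 to 241 CPM in oocytes.

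BMP15 and GDF9, the growth factors by which the oocyte acts on its cumulus cells, took like shares of both kinds of library. BMP15 stood at 2529, 725, 1685, 895, 4603 and 2834 CPM in the pools, in the same order. In the oocytes it ranged from 1225 to 3293 CPM, with a median of 2228. Its means were 2212 ± 1444 CPM (SD, n = 6) and 2250 ± 576 CPM (SD, n = 15). The pools were more widely spread than the single oocytes, and pools A3 and B1 lay below every oocyte. GDF9 was likewise lowest in A3 and B1, at 871 and 945 CPM, with 1355 to 2735 CPM in the other 4. Its means were 1679 ± 745 CPM in pools and 1326 ± 300 CPM in oocytes.

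**Figure D1:**
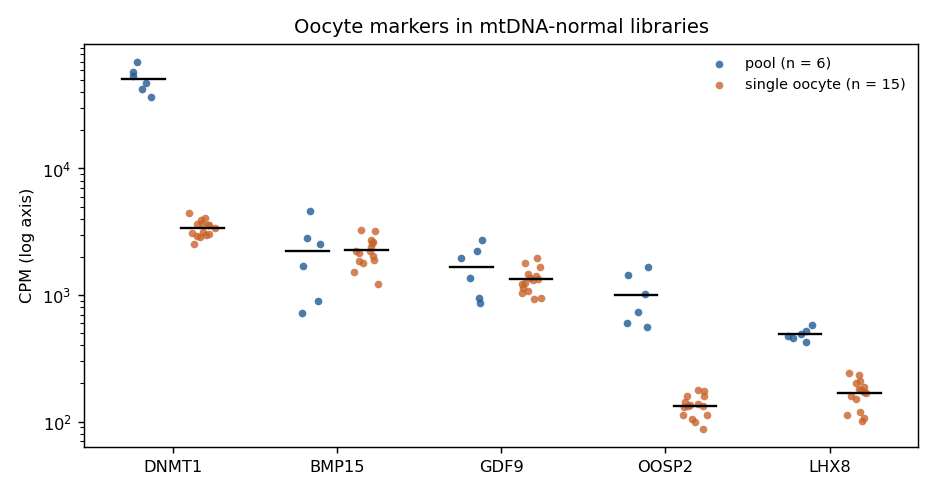
CPM of 5 oocyte markers (log axis) in the 6 pools and 15 single oocytes, with black lines at the group means. DNMT1, OOSP2 and LHX8 are higher in all pools than in all oocytes, while the groups overlap for BMP15 and GDF9.

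Genes were tested between the 6 pools and 3 sums of oocytes, formed by the number that opens a sample's title. The labels do not explain this number. By the dates in the column names, number 2 holds oocytes of 22 September, 3 those of 17 September and 4 those of both. The spread between sums, and each sum left out, thus partly follows the dates. Nothing ties pools or sums to separate animals, so the p-values reflect only how these libraries and sums vary, which may be technical variation. With edgeR's quasi-likelihood test, 53.6% of the 16973 genes tested passed an adjusted p of 0.05, 26.7% higher in single oocytes (4532 genes) and 26.9% lower (4567). Past 4-fold as well, 20.8% were higher (3526) and 14.6% lower (2471). Differences are log2, single oocytes minus pools, and by TMM scaling the median over all genes tested was 0.10. Scaling by library totals alone moved that median to 1.01, and the share of called genes that were higher from 49.8% to 72.8%. With DESeq2's size factors the share was 58%. By library totals 6579 genes were higher and 2456 lower. A ratio of CPM follows the library totals, so the log2 differences below lie about 0.91 under it. Against the background of 53.6%, a called gene is the common case and the size of the difference carries more of the description.

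Of the markers, DNMT1 was lower in single oocytes by a log2 difference of -4.92 ± 0.37 (SE; adjusted p = 1.57e-07), OOSP2 by -3.81 ± 0.38 (adjusted p = 1.84e-06) and LHX8 by -2.46 ± 0.23 (adjusted p = 1.1e-06). GDF9 was lower by -1.22 ± 0.29 (adjusted p = 0.00266), a call lost by library totals at -0.33. BMP15 gave -0.82 ± 0.40 (adjusted p = 0.0968), which did not pass, and 0.05 by library totals. Without pool A3 BMP15 passed at -0.96, and without B1 at -0.94.

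Both methods showed an oocyte transcriptome, with different genes in front. Of the 100 genes with the largest shares, 32 were common to both, and of the 1000 largest 502 were. Of the 10 largest 2 were common, DNMT1 (rank 1 in pools and 6 in oocytes) and the unnamed row LOC102159807 (ranks 3 and 10). Others high in both were BMP15 (ranks 30 and 17), GDF9 (49 and 50), AURKA, a kinase of the meiotic spindle (42 and 20), SIN3A, a scaffold of histone deacetylase complexes (12 and 21), and BTG4 (9 and 106). Across the 11420 genes of at least 1 CPM in both types, Spearman's rho had a median of 0.945 between pools, 0.799 between oocytes and 0.607 between a pool and an oocyte (0.471 to 0.713). These are correlations across genes, which are not independent replicates, and libraries of 1 type share kit, table and depth class.

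**Figure D2:**
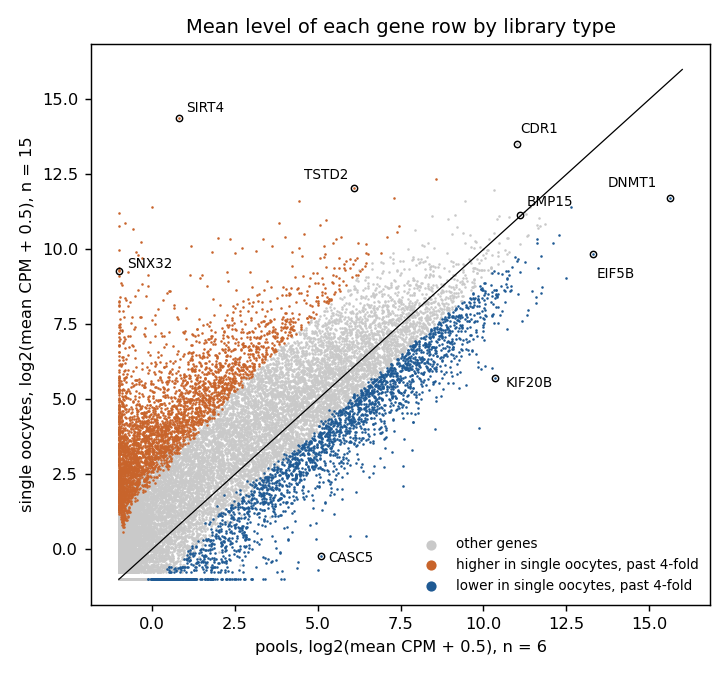
Mean CPM of each gene row in the 6 pools and in the 15 single oocytes, on a log2(CPM + 0.5) scale, with the line of equal share. Colours mark genes past 4-fold that passed edgeR's test, and 9 genes of the text are ringed: BMP15 lies on the line, DNMT1 and EIF5B below it, and SIRT4 far above it.

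After DNMT1, symbols with the largest shares in the pools included EIF5B, ESCO2, CCDC6, BTG4 and TAX1BP1. EIF5B, the factor that joins the ribosomal subunits at the start codon, stood at 7543, 22288, 7121, 8493, 8551 and 6530 CPM in pools A2 to B4. In oocytes it ranged from 243 to 1627 CPM. Pool A3 was far above the other pools for it, and the log2 difference of -4.49 became -3.89 without that pool. ESCO2, which acetylates cohesin so that sister chromatids hold together, stood at 2845 to 8255 CPM in pools and 332 to 688 CPM in oocytes. BTG4, the adaptor that brings the CCR4-NOT deadenylase to maternal mRNA, stood at 2739 to 4123 CPM in pools and 600 to 1293 CPM in oocytes. TAX1BP1, an autophagy receptor, stood at 2263 to 4432 CPM in pools and 299 to 556 CPM in oocytes. CCDC6 and MXD1, a partner of MAX, were also among the leading 13 rows of the pools and did not overlap between types. TMEM255A (rank 11) and SIN3A (rank 12), which stood between them, did overlap. EIF5B, ESCO2, BTG4, TAX1BP1, CCDC6 and MXD1 passed the test, with log2 differences from -1.87 for MXD1 to -4.49 for EIF5B. These genes were named for their large shares in the pools, so passing the test and the lack of overlap add no support.

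The rows that led the single oocytes included genes that the pools barely held. SIRT4, a mitochondrial sirtuin, had the largest mean share of all, 21337 ± 13330 CPM (SD, n = 15), and ranged from 5123 to 57157 CPM with a median of 17705. In the pools it stood at 0.733, 0.184, 2.41, 0.78, 1.33 and 2.22 CPM, which is 185 counts in all. Every oocyte lay far above every pool, and the log2 difference was 13.29 ± 0.61 (adjusted p = 1.16e-09). SIRT4 and the other leading rows of the oocytes were named for their large shares there. Their adjusted p and separation from the pools therefore add no support. TSTD2, a protein with a sulfurtransferase domain, stood at 4231 ± 831 CPM in oocytes and 67.3 ± 16.6 CPM in pools. PHTF1, a membrane protein, stood at 3134 ± 685 CPM in oocytes and 21.1 ± 3.61 CPM in pools, and SSBP2, a single-stranded DNA-binding protein, at 5240 ± 1583 and 383 ± 105 CPM.

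Other leading rows of the oocytes were abundant in pools too. CDR1 stood at 1586, 4950, 1162, 2115, 1061 and 1418 CPM in the pools and at 8608 to 15340 CPM in oocytes. Its log2 difference of 1.40 (adjusted p = 0.025) rose to 2.08 without pool A3 and no longer passed when any 1 of the 3 sums was left out (1.31 to 1.42). In other mammals the strand opposite CDR1 gives a circular RNA, and with the strand setting not given the source of these reads cannot be told apart. JAG1, a Notch ligand, stood at 760 to 1482 CPM in pools and 3473 to 4928 CPM in oocytes, a log2 difference of 0.76. IRAK3, an inhibitor of Toll-like receptor signalling, stood at 589 to 954 CPM in pools and 2435 to 3916 CPM in oocytes, a log2 difference of 1.19. NUP214, a nuclear pore protein, and CNNM2, a magnesium transporter, overlapped between types. Their log2 differences of -0.87 and -0.89 passed by TMM and were 0.01 and 0.05 by library totals, and without the sum of title number 3 the value for NUP214 (-0.88) did not pass.

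Among genes of at least 50 CPM in pools, symbols with the largest deficits in single oocytes included KIF20B, SLC30A6, ERI2, POLE2, TMEM128, DNMT1, VPS29, PTTG1 and SNRPG. KIF20B, a kinesin of cytokinesis, stood at 966, 2656, 1082, 1336, 820 and 1019 CPM in the pools and at 9.96 to 134 CPM in oocytes, a log2 difference of -5.61 (-5.11 without A3). PTTG1, or securin, the inhibitor of separase, stood at 989, 809, 876, 687, 1367 and 1130 CPM in pools and at 16.6 to 165 CPM in oocytes. VPS29, a subunit of the retromer, stood at 625 to 1313 CPM in pools and 2.47 to 117 CPM in oocytes. KIF20B, PTTG1 and VPS29 did not overlap between types. They were chosen for large differences among genes that passed the test, so their adjusted p of 3.52e-06 or less adds no support.

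Less abundant genes of this kind had no count in many oocytes. SLC30A6, a zinc transporter, stood at 38.4 to 115 CPM in every pool and had a count in 7 of 15 oocytes. ERI2, an exonuclease-family protein, stood at 31.01 to 110 CPM in pools and had a count in 4 oocytes. POLE2, a subunit of DNA polymerase epsilon, stood at 87.3 to 118 CPM in pools and had a count in 9 oocytes. TMEM128 had a count in 12 and SNRPG, a core spliceosome protein, in 10. Their log2 differences ran from -5.37 for SLC30A6 to -4.70 for SNRPG.

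Detection was counted as a group mean of at least 1 CPM. By this rule the pools showed 12057 genes, the oocytes 16497 and both types 11420. Seen by pools alone, with at most 3 counts over all 15 oocytes, were 369 genes, of which 107 carry a gene symbol. Seen by single oocytes alone, with at most 3 counts over all 6 pools, were 1045 genes, 378 with a symbol. The other rows are loci named by number or, in a few cases, calendar dates in place of symbols. Without pool A3 the genes seen by both, by pools alone and by single oocytes alone numbered 11560, 382 and 1077. The order of the types depends on the rule. With at least 1 CPM required in every library, the 6 pools showed 9085 genes and the 15 oocytes 5953.

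What the single oocytes missed was mostly of low share in the pools. The highest row was LOC100737574, at 86.5 CPM in pools with 3 counts over the oocytes, and the highest with a gene symbol was CASC5, the kinetochore scaffold also called KNL1, with 30.1, 43.6, 35.8, 40.7, 21.4 and 32.4 CPM in the pools and also 3 counts over the 15 oocytes. BTBD8 stood at 14.99 to 25.8 CPM in pools with 1 count in oocytes, and ZNF37A, a zinc-finger protein, at 7.29 to 23.7 CPM with 3 counts. HSPB11, a component of intraflagellar transport, averaged 6.47 ± 2.84 CPM in pools and had no count in any oocyte, which makes it at least 14.5-fold lower against a floor of 3 counts over the oocytes. ZFP37 averaged 5.29 ± 2.18 CPM, with no count in oocytes and a bound of at least 11.8-fold. ENY2, CXCL9, MCF2L2, CYP3A39 and CXXC4 averaged 4.23 to 6.04 CPM in pools and had 1 to 3 counts over the oocytes. At a mean of at least 10 CPM, 18 genes were seen by pools alone, against 164 by oocytes alone.

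What the pools missed reached high shares in the oocytes. SNX32, a sorting nexin, had no count in any pool and stood at 364 to 776 CPM in the oocytes, with a mean of 626 ± 103, at least 31040-fold higher against a floor of 3 counts over the pools. MIR9818, the row of a microRNA gene, had no count in any pool and stood at 349 to 757 CPM in oocytes, at least 27096-fold higher. GDF1, a ligand of the TGF-beta family, had none in pools and 218 to 435 CPM in oocytes. FAM166A, TOMT, a methyltransferase known from hair cells, NME9, SH2D7 and TCTEX1D4 also had no count in pools and averaged 177, 171, 134, 111 and 95.1 CPM in oocytes. SLC3A1, a subunit of an amino acid transporter, had 2 counts over the pools and 194 to 628 CPM in oocytes. LENG9, with 2 counts over the pools, and SYNC, an intermediate filament protein of muscle with 3, averaged 158 and 155 CPM. For these 11 rows each of the 15 oocytes had a count.

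Most of these rows lie over another gene. Of 13 symbols of at least 50 CPM in oocytes and at most 3 counts in pools, 11 could be placed in the RefSeq annotation of Sscrofa11.1, and 8 of them (72.7%) overlap the span of another row of the table. Among all symbols of at least 50 CPM in oocytes 30.4% did, among those higher past 32-fold 43.6%, among all tested 28.8%, among those lower past 4-fold 24.5% and among those seen by pools alone 20.6%. These shares are a description, made after the values were seen and on another build than the counts. Overlapping partners were named for their position. SNX32 overlaps CFL1, an actin-severing protein, which stood at 15.7 ± 4.09 CPM in pools and 70.6 ± 28.6 CPM in oocytes. GDF1 overlaps UPF1, a helicase of mRNA surveillance, at 1.92 ± 1.20 and 41.2 ± 24.4 CPM. SLC3A1 overlaps PREPL, at 382 ± 70.8 and 106 ± 46.4 CPM, and SYNC overlaps RBBP4, a histone-binding protein, at 293 ± 89.5 and 306 ± 81.4 CPM. Thus the partner was seen by both methods, higher in oocytes in some pairs and lower or level in others.

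Of the 10 symbols that led the oocytes, TSTD2, PHTF1, CDR1 and SIRT4 also overlap another row. SSBP2, JAG1, DNMT1, IRAK3, NUP214 and CNNM2 overlap none. Among all symbols of at least 50 CPM in oocytes 30.4% overlap another row, so overlap is not particular to the leading rows. TSTD2 overlaps TMOD1 (844 CPM in pools, 224 in oocytes) and NCBP1 (95.0 and 92.8), PHTF1 overlaps MAGI3 (1381 and 968), and CDR1 overlaps LOC100524727 (10.1 and 16.1). LOC106509762, a row without a symbol that had no count in pools and 1776 ± 800 CPM in oocytes, overlaps EIF5B, which was higher in pools. SIRT4 overlapped only LOC102165911, which was near 0 in both types (0.0349 CPM in pools, listed at 0 in oocytes). Since the strand setting of the counts is not given, reads of overlapping genes cannot be told apart, and the part of overlap in these values was not tested.

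**Figure D3:**
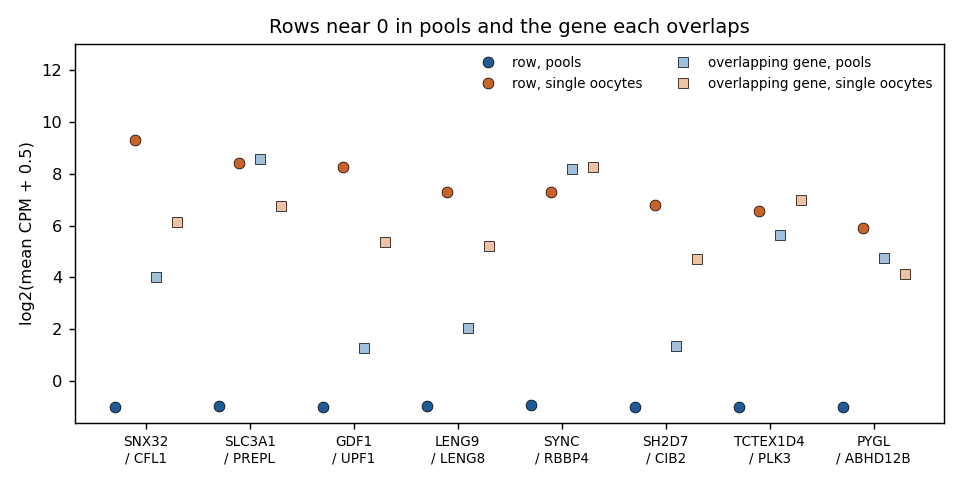
Mean level, as log2(CPM + 0.5), of 8 rows with at most 3 counts over the 6 pools (circles) and of the gene that each overlaps (squares), in pools (n = 6) and single oocytes (n = 15). All 8 rows lie near the bottom of the axis in pools, while their partners lie above it in both types.

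Above the lowest shares the oocytes had fewer genes than their depth alone gives. Of 2680 genes at 1 to 3 CPM in pools, an oocyte had a count for 54.0% on average, and counting at its depth would give 54.5% if its shares were those of the pools. For 2840 genes at 3 to 10 CPM it had 72.1% where depth gives 88.6%, and for 2370 genes at 10 to 30 CPM it had 85.9% where depth gives 99.6%. From 100 to 300 CPM it had 99.1%. No gene of at least 30 CPM in pools was at 0 in all oocytes. In the other direction depth gives 100% at every level, and a pool had a count for 63.8% of 3311 genes at 1 to 3 CPM in oocytes, rising to 98.3% at 100 to 300 CPM and then 95.4% of the 84 genes of at least 1000 CPM. Of those 84, 3 were at 0 in all pools.

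**Figure D4:**
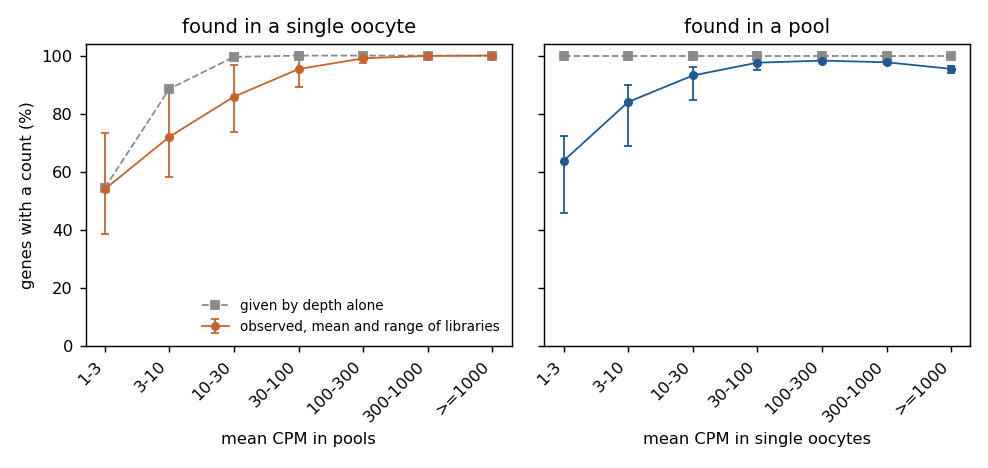
Share of genes with a count in a single oocyte by their mean CPM in pools (left), and in a pool by their mean CPM in single oocytes (right). Points are means over the 15 oocytes or 6 pools, bars the range of libraries and the dashed line the share that depth alone gives, which lies above the points from 3 to 1000 CPM on the left and at every level on the right.

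At equal depth a single oocyte showed more genes than a pool. At 232358 counts, the size of the smallest library, the expected number of genes with a count was 9632 ± 698 in pools (8422 to 10328) and 11458 ± 1009 in oocytes (9864 to 13108). The ranges overlap, and the 2 dates carried by the columns gave like means, 11566 ± 775 for the 9 oocytes of 17 September and 11294 ± 1354 for the 6 of 22 September. Without pool A3 the pools averaged 9875 ± 412. Counts were also spread over more genes. The 100 leading genes took 26.5% ± 3.44 of a pool and 19.5% ± 1.56 of an oocyte, and the fewest genes that together held 50% of the counts numbered 446 ± 82.6 in a pool and 813 ± 58.0 in an oocyte. The latter ranges did not overlap, 287 to 503 and 709 to 928, also without A3, which gave the 287.

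Calls in the gene lists below stand against those of all 16973 genes tested, 26.7% higher and 26.9% lower by TMM. By library totals 6579 of all genes were higher and 2456 lower. Counts near these background shares say nothing particular of a list. Beyond BMP15 and GDF9, the secreted factors and their receptor held BMP6 and KIT. BMP6, a ligand related to BMP15, stood at 3.08 to 11.9 CPM in pools and 23.9 to 212 CPM in oocytes, a log2 difference of 3.39. KIT, the receptor for the granulosa cells' KIT ligand, stood at 48.6 ± 19.4 and 55.1 ± 37.7 CPM; its difference of -0.76 did not pass, was 0.15 by library totals and passed without the sum of title number 3 (-1.21). Of the 5 genes, 1 was higher, 1 lower and 3 not called by TMM, and by library totals 2 were higher and 0 lower. Of 5 tested genes of the egg coat and sperm binding, 3 were higher and 1 lower (4 and 1 by library totals). ZP4, a glycoprotein of the zona pellucida, stood at 325, 112, 218, 148, 437 and 179 CPM in pools and at 340 to 1416 CPM in oocytes. Its difference of 0.93 (adjusted p = 0.0217) did not pass without the sum of title number 3 (0.71) or 4 (0.85). Of 8 germline transcription factors, 1 was higher, 2 lower and 5 not called (3 higher and 1 lower by library totals). POU5F1, the pluripotency factor OCT4, was the higher one by TMM, at 8.72 CPM in pools and 89.5 in oocytes, and was named after its values were seen. SALL4, a zinc-finger partner of it, stood at 195 ± 103 and 445 ± 125 CPM with a difference of 0.30 that did not pass and was called by library totals (1.17).

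The maternal-effect genes, whose products the embryo needs from the egg, stood higher in the single oocytes more often than lower. Of 15 rows 14 were tested, 8 higher, 4 lower and 2 not called, with a median of 1.44 against 0.10 for all genes. By library totals 8 were higher and 1 lower, with a median of 2.35 against 1.01. PADI6, a component of the cytoplasmic lattices, stood at 74.3, 48.8, 81.0, 39.4, 179 and 105 CPM in pools and at 873 to 1609 CPM in oocytes, without overlap, a log2 difference of 2.88. UHRF1, which guides DNMT1 to DNA, stood at 38.6 to 108 CPM in pools and 374 to 645 CPM in oocytes, a difference of 1.68. TLE6, of the subcortical maternal complex, and NPM2, a histone chaperone, were higher by 5.15 and 1.78 and were named after their values were seen. KPNA7, the importin of the oocyte, was lower, with 971 to 2550 CPM in pools and 368 to 908 CPM in oocytes. H1FOO, the linker histone of the oocyte, overlapped at 477 to 962 and 189 to 1252 CPM, and its difference of -1.35 was called by TMM and not by library totals (-0.39).

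Of 5 tested enzymes of DNA methylation, 3 were lower and none higher by TMM, and by library totals 1 was lower (DNMT1) and 1 higher. DNMT3B, a de novo methyltransferase, stood at 244 ± 80.5 CPM in pools and 248 ± 40.6 CPM in oocytes, a log2 difference of -0.86 by TMM and 0.04 by library totals. DNMT3A stood at 203 ± 67.6 and 264 ± 58.5 CPM, and TET3, the dioxygenase of the egg, at 453 ± 57.6 and 669 ± 186 CPM. Their differences of -0.48 and -0.34 did not pass and were 0.42 and 0.61 by library totals; DNMT3A passed without pool A3 (-0.55). Thus DNMT1 alone among the 4 named stood many-fold apart between the types.

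Among genes that store and degrade maternal mRNA, lower calls in single oocytes outnumbered higher ones. Of 25 tested, 17 were lower, 5 higher and 3 not called, with a median of -1.48 by TMM and -0.53 by library totals, which called 9 lower and 5 higher. Beside BTG4, CNOT6L, a deadenylase, stood at 308 to 952 CPM in pools and 99.4 to 359 CPM in oocytes, a difference of -2.51. CNOT1, the scaffold of the same complex, stood at 477 to 673 and 228 to 476 CPM, a difference of -1.61. EIF4ENIF1, which holds the cap-binding protein in repressed mRNPs, stood at 650 to 1363 and 428 to 1065 CPM; its difference of -1.48 was not called by library totals (-0.56). In the piRNA pathway, which silences transposons in germ cells, 8 of 15 tested were lower, 2 higher and 5 not called, with a median of -1.35; by library totals 5 were lower and 5 higher, with a median of -0.35. TDRD1, a scaffold of piRNA granules, stood at 384, 270, 323, 414, 339 and 399 CPM in pools and 12.9 to 170 CPM in oocytes, without overlap. PIWIL3, a Piwi protein of oocytes, stood at 313 to 506 and 104 to 376 CPM, a difference of -1.65.

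The genes of metaphase II arrest and the cell cycle went both ways. Of 28 tested, 15 were lower, 6 higher and 7 not called, with a median of -0.98 by TMM; by library totals the median was -0.05, with 9 lower and 12 higher. MOS, the kinase that starts the MAPK cascade of the arrest, was higher, at 153, 113, 145, 107, 139 and 195 CPM in pools and 427 to 812 CPM in oocytes, without overlap and with a difference of 1.13. FBXO43, or EMI2, the inhibitor of the anaphase-promoting complex, was lower, at 367 to 473 and 87.3 to 289 CPM, a difference of -1.96. WEE2, the kinase that restrains CDK1 in the oocyte, stood at 690 to 1627 and 492 to 814 CPM (-1.78), and CCNB1, cyclin B1, at 445 to 650 and 188 to 478 CPM (-1.67). Of 17 genes of the spindle, its checkpoint and cohesin, 11 were lower, 4 higher and 2 not called, with a median of -1.36 (8 lower and 4 higher by library totals, median -0.39). SMC3, a core arm of cohesin, stood at 1390, 2878, 1618, 1793, 1148 and 1302 CPM in pools and 52.3 to 306 CPM in oocytes, a difference of -4.37 (-4.00 without A3). TACC3, a spindle protein, went the other way, with 18.8 to 148 CPM in pools and 515 to 1197 CPM in oocytes (2.68). AURKA stood at 1765 ± 412 and 2176 ± 243 CPM; its difference of -0.62 did not pass without the sum of title number 4 and was 0.30 by library totals.

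Among 16 tested histones and histone chaperones 9 were lower, 4 higher and 3 not called, with a median of -0.98 by TMM; by library totals 5 were lower and 6 higher, with a median of -0.01. NPM1, a nucleolar chaperone, stood at 2121 to 3759 CPM in pools and 138 to 392 CPM in oocytes (-4.52), and ASF1A, a chaperone of H3 and H4, at 346 to 581 and 46.5 to 186 CPM (-3.32). NASP overlapped, at 445 to 1170 and 153 to 473 CPM (-2.43). Of 28 histone methyltransferases and demethylases 11 were lower, 5 higher and 12 not called; by library totals 6 were lower and 10 higher, and the median of -0.24 by TMM was 0.70. NSD1, which methylates H3K36, stood at 340 to 536 and 47.3 to 261 CPM (-2.31), and KDM1B, the demethylase needed for imprints in the oocyte, at 360 to 525 and 108 to 321 CPM (-2.23). SETD1B, which methylates H3K4, was higher, at 93.0 to 271 and 458 to 808 CPM (0.89), although its call was lost with oocytes of 22 September alone (0.76).

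Calls in the lists of housekeeping genes depended on the scaling, and library totals gave more higher calls in each. Over all genes tested, higher calls likewise rose from 4532 to 6579 and lower calls fell from 4567 to 2456. Of 80 rows for cytosolic ribosomal proteins 71 were tested, 25 higher, 9 lower and 37 not called, with a median of 0.99 (38 higher and 1 lower by library totals, median 1.90). Their summed share was 493 to 1232 CPM in pools and 1803 to 3931 CPM in oocytes, without overlap. RPS24 stood at 193 to 455 CPM in pools and 597 to 2100 CPM in oocytes (0.99), while RPL4 stood at 64.8 ± 12.9 and 64.9 ± 28.2 CPM, with a difference of -0.96 by TMM that was not called by library totals (-0.03). Many ribosomal genes have near-identical pseudogenes, which makes their counts uncertain. Of 65 tested mitochondrial ribosomal proteins 21 were higher, 18 lower and 26 not called (median 0.46), against 33 higher and 8 lower by library totals (median 1.41). By TMM those counts lie near the shares of all genes, 26.7% higher and 26.9% lower. MRPS30 stood at 95.3 to 122 CPM in pools and 45.2 to 124 CPM in oocytes (-1.53), against the median of its list. Of 58 nuclear-encoded genes of the respiratory chain 19 were higher, 7 lower and 32 not called (median 0.86), against 30 higher and 2 lower by library totals (median 1.77). SDHB, of complex II, stood at 194 to 269 and 39.7 to 242 CPM (-1.57), and ATP5F1, of ATP synthase, at 39.9 to 82.9 and 4.30 to 60.4 CPM (-1.63, and by library totals -0.67, not called). SDHB and ATP5F1 thus lay against the median of their list.

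Of 31 tested genes of glycolysis and the citrate cycle 11 were higher, 6 lower and 14 not called (median 0.60), against 17 higher and 3 lower by library totals (median 1.53). Their summed share was 644 to 1097 CPM in pools and 2328 to 3174 CPM in oocytes, without overlap. Of 33 proteasome subunits 5 were higher, 14 lower and 14 not called, with a median of -0.34 by TMM. By library totals the balance turned, with 12 higher and 6 lower and a median of 0.56. PSMD1 stood at 253 ± 16.1 and 103 ± 48.3 CPM (-2.25) and PSMD12 at 287 ± 50.5 and 80.9 ± 31.9 CPM (-2.77), both subunits of the regulatory particle. Of 43 translation factors 11 were higher, 16 lower and 16 not called, with a median of -0.45 by TMM. By library totals 17 were higher and 10 lower, with a median of 0.45. EEF1A1, which brings aminoacyl-tRNA to the ribosome, was higher, at 226 to 678 and 1304 to 2733 CPM (1.15), and EIF4G2, an initiation factor for cap-independent translation, lower, at 1321 to 1764 and 239 to 675 CPM (-2.73). Of 21 cytosolic chaperones 7 were higher, 9 lower and 5 not called, with a median of -0.11 by TMM. By library totals 11 were higher and 7 lower, with a median of 0.83. HSPH1 stood at 669 to 768 and 158 to 311 CPM (-2.59), DNAJA1 at 1252 to 1552 and 470 to 1120 CPM (-1.82), and HSP90AB1 at 282 to 755 and 104 to 376 CPM (-1.79).

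**Figure D5:**
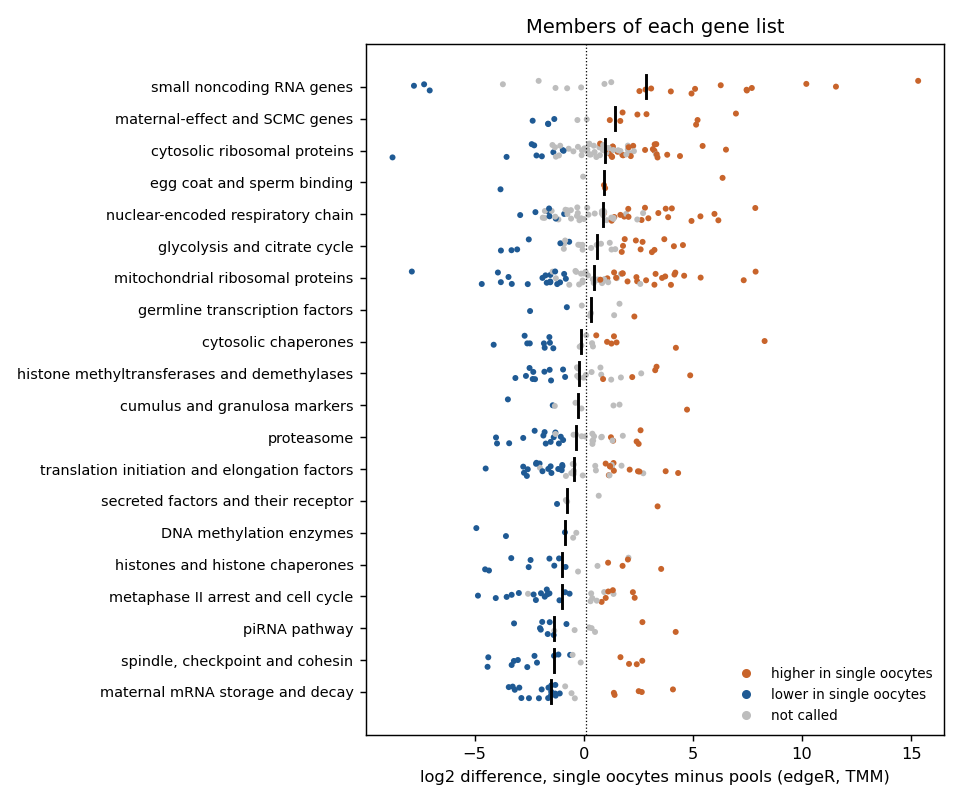
Log2 difference, single oocytes minus pools by edgeR with TMM scaling, of each tested member of the 20 lists with at least 5 tested members, with a black bar at each list's median and a dotted line at the median of all genes (0.10). Lists for mRNA storage, the spindle and piRNAs have the lowest medians (-1.48, -1.36 and -1.35), and the ribosomal protein, maternal-effect and small RNA lists lie above the dotted line.

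Rows for small noncoding RNA genes were near 0 in the pools. Of 390 rows 89 had a count and 23 were tested, 13 higher, 3 lower and 7 not called (14 higher and 2 lower by library totals). Over all genes tested 26.7% were higher by TMM. A count of 0 was found for 340 rows over the pools and 324 over the oocytes. A mean of 1 CPM was reached by 7 rows in pools and 28 in oocytes. Rows can pass the expression filter through the oocytes alone, so the excess of higher calls adds no support. The summed share of the 390 rows was 13.2 to 24.0 CPM in pools and 480 to 1046 CPM in oocytes, of which MIR9818 gave most. MIR9828-1 stood at 0.138 to 1.84 CPM in pools and 1.49 to 46.1 CPM in oocytes (2.83), and MIR9811 at 2.22 ± 0.702 and 11.08 ± 12.5 CPM (1.26, not called). The protocols name no library of small RNA, so these rows are not levels of mature microRNAs.

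Markers of other cells were low in both types, and their part in the differences was not tested. In bulk samples, fewer cells of a type and less RNA per cell cannot be told apart. Of 19 rows for cumulus and granulosa markers 17 had a count and 8 were tested, 1 higher, 2 lower and 5 not called (3 higher and 1 lower by library totals), and their summed share was 139 to 207 CPM in pools and 78.4 to 197 CPM in oocytes. CYP11A1, the first enzyme of steroid synthesis, was the higher one by TMM, at 0.123 ± 0.107 and 6.90 ± 5.98 CPM (4.73, and 3.69 with oocytes of 17 September alone, not called). CYP19A1, the aromatase, and LHCGR, the LH receptor, were at 0 in all pools and at 1.70 ± 4.54 and 1.37 ± 5.30 CPM in oocytes. FSHR was at 0.056 ± 0.0993 and 3.20 ± 7.12 CPM. For CYP19A1, LHCGR and FSHR the SD over oocytes exceeds the mean, so these means rest on few oocytes. These genes and CYP11A1 lie outside the rule for named genes. INHBA, VCAN and GREM1 made up most of the sum. INHBA, a subunit of activin, stood at 33.3 to 66.4 and 4.47 to 74.2 CPM, with a difference of -1.42 not called by library totals (-0.49). VCAN, a matrix proteoglycan, stood at 46.6 to 110 and 0 to 29.4 CPM (-3.47), and GREM1, a BMP antagonist, at 32.7 ± 7.05 and 42.6 ± 30.4 CPM (-0.38, not called, and 0.55 by library totals). Theca and stroma markers summed to 7.12 to 12.7 CPM in pools and 29.8 to 163 CPM in oocytes, led by COL1A2, a collagen chain, at 4.50 to 8.04 and 8.95 to 140 CPM (1.96). Of 8 rows for leukocyte and blood markers 5 had a count. PTPRC, or CD45, stood at 0.42 ± 0.254 CPM in pools and HBB at 0.143 ± 0.262 CPM, and both were at 0 in all oocytes. Both pool means lie under 0.431 CPM, the floor of 3 counts over the oocytes, so these zeros show no difference between the types. CD3E stood at 1.14 ± 1.28 CPM in pools and 0.562 ± 1.51 CPM in oocytes (-1.54, not called). CD68 went the other way, at 0.123 ± 0.119 and 0.989 ± 3.11 CPM. CD3E and CD68 each had a count in 2 oocytes.

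A pool averages several oocytes, and the spread between libraries was compared over the 2381 genes of at least 50 CPM in both types. The median coefficient of variation (CV) was 23.3% over the 6 pools, A3 included, where counting error alone gives 1.57%. Over the 15 oocytes it was 33.1%, where counting error gives 12.8%. The order of the types depends on the measure. The biological coefficient of variation from edgeR's common dispersion, which sets counting error apart, was 0.421 for pools and 0.345 for oocytes. It was taken over unlike sets of genes (10486 and 3702). For 653 genes (27.4%) the oocytes varied less than the pools, and among the 553 genes of at least 200 CPM this was 41.6%, with median CVs of 20.96% and 24.0%. Of genes of at least 100 CPM in both types, the least variable between oocytes was USP7, a deubiquitinase of the p53 axis, with a CV of 8.14% (814 to 1091 CPM). CBLL1, a ubiquitin ligase, followed at 8.75%, PAX6, a transcription factor, at 9.19%, ATXN2, an RNA-binding protein, at 10.195% and RASA1, a Ras GTPase-activating protein, at 10.6%. Among the most variable were TRPM3, a cation channel, at 69.2%, CHST11, a sulfotransferase, at 68.6%, USP53 at 62.2% and TDRD6, a Tudor protein, at 61.4%. SIRT4, whose share of counts was the largest, had a CV of 62.5%. These values span both dates, and some genes differed between them. TRPM3 averaged 97.1 ± 42.6 CPM over the 9 oocytes of 17 September and 283 ± 107 CPM over the 6 of 22 September, with CVs of 43.9% and 37.9% within the dates. Within the dates CHST11 had CVs of 59.1% and 90.1%, USP53 59.4% and 41.4%, TDRD6 60.1% and 30.2% and SIRT4 61.4% and 57.3%. The 5 least variable genes had CVs of 6.63% to 10.8% within a date.

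The mtDNA-deficient libraries, which the tests above did not use, gave the same contrast. Their pools and single oocytes stand in the same separate tables as the normal ones. The repeat is therefore not independent of the ways in which the library types differ. Among 5 pools and 14 oocytes summed into 4, 58.2% of 14734 genes tested differed between the library types. Of the 9099 genes called in normal libraries 8434 could be tested, 8383 (99.4%) had the same direction and 7223 (85.6%) were called again. The interaction of library type and mtDNA state, tested with edgeR over all 4 groups and 18828 genes, passed for none, and 1083 genes had an unadjusted p under 0.05. That fit did not pair the pool labels and title numbers that occur in both states, so it does not show that the states are alike.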

How the data were processed

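The authors deposited raw counts per gene, as whole numbers, in a table of pools and a table of single oocytes, each of 38795 rows. Reads were 100 bp paired-end from an Illumina HiSeq 3000, per the labels' protocols. The submitters' processing notes name TopHat2 2.0.14, FastQC, Trim Galore, edgeR and build Sscrofa10.2. The sources used here do not give the counting program or its strand setting. The row that names no gene held 1.05% to 3.43% of a pool's counts and 2.51% to 7.74% of an oocyte's.

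That row, LOC102158401 and RN18S were left out before CPM and library sizes. The 15 oocytes were summed by the first number of the title (4 oocytes for 2, 4 for 3 and 7 for 4) and compared with the 6 pools by the quasi-likelihood test of edgeR 4.0.16 in R 4.3.3, with its default expression filter, TMM scaling and Benjamini-Hochberg adjustment over all genes tested. A gene seen in 1 type only can pass that filter. The test was checked on simulated data. Replicate libraries always differed by more than sampling noise (smallest chi-square per degree of freedom 34.9 for pools and 4.51 for oocytes). Genes at equal depth come from the exact rarefaction formula. Intervals and floors cover counting error only.

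Named genes were the 5 markers, the 10 symbols of largest share in each type, the 10 of largest difference each way among called genes of at least 50 CPM in the higher type, the 10 highest with at most 3 counts in the other type, up to 4 members of each of 22 lists by mean level, and the 5 symbols of largest and of smallest CV. A few genes chosen by this rule are not reported here, nor searched for outlying libraries. The members, lists and rule were chosen with earlier results of these data known. Names and overlaps of genes were taken from RefSeq for Sscrofa11.1, without coordinates, and 21176 rows matched. Alternatives were DESeq2 1.42.0 and its size factors, limma-voom (limma 3.58.1), library totals, other filters, each oocyte as a sample, 1 date, the removed rows kept, and each pool or sum left out. Detection and equal depth without pool A3, and equal depth and CVs by date, were added after seeing the data.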

Additional observations from a re-analysis of the deposited data

Results flagged for a closer look

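Among 4 to 10 samples, a value far from the rest is flagged by Dixon's ratio in about 1 in 20 groups by chance. Of 98 named genes of at least 1 CPM in pools, 10 had such a pool, and it was A3 for each of the 10. A3 was high for CDR1 (4950 CPM against 1061 to 2115 in the other 5 pools), EIF5B (22288 against 6530 to 8551), IRAK3 (954 against 589 to 686), KIF20B (2656 against 820 to 1336), NPM1 (3759 against 2121 to 2715) and SMC3 (2878 against 1148 to 1793). It was low for JAG1 (760 against 1265 to 1482), NSD1 (340.03 against 465 to 536), PHTF1 (14.2 against 21.1 to 24.6) and UHRF1 (38.6 against 87.1 to 108). Its 10 leading genes took 13.951% of its counts and its 100 leading genes 33.3%, and 287 genes held 50% of them.

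The rows left out of the comparison carried signal in both types. LOC102158401 held 61.1% of the counts of an oocyte and 0.0125% of those of a pool, RN18S 2.77% and 0.642%, and the row that names no gene 4.98% and 2.16%.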

How the results depend on the processing

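No paired analysis was possible because pools and sums of oocytes share no replicate labels. Leaving out each pool or sum gave 3548 to 4698 genes higher in single oocytes, 4081 to 4708 lower, 2898 to 3639 higher past 4-fold and 2299 to 2498 lower past 4-fold. By library totals 2456 were lower and 935 lower past 4-fold. Log2 differences that turned positive included those of AURKA (0.30), BMP15 (0.046), CNNM2 (0.048), DNMT3A (0.42), DNMT3B (0.037), GREM1 (0.55), KIT (0.15), NUP214 (0.014), PAX6 (0.35) and TET3 (0.61). Further named genes did so too, among them ZP2 (0.86), OTX2 (0.82), PDHA1 (0.78) and TAF4B (0.17). Genes past 4-fold numbered 1964 higher and 1242 lower with at least 10 CPM required in every library of a type, and 1932 and 1267 with each oocyte as a sample; both test fewer genes. Past 8-fold 2538 were higher and 1095 lower. Genes seen by both types, by pools alone and by single oocytes alone numbered 7567, 44 and 265 at 5 CPM, 5886, 18 and 164 at 10 CPM, and 5105, 110 and 66 with 1 CPM in every library. At 0.5 CPM pools alone gave 767 and oocytes alone 1669. Depth limits the oocytes: 3 counts over all 15 are 0.431 CPM, against 0.02 CPM over the pools.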
